A study of Homo sapiens with 6 samples.

Results

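The genes described here encode the enzymes that attach ubiquitin and those that remove it, in MDA-MB-231 cells treated with the histone deacetylase inhibitor panobinostat. They are all genes of the count table whose symbol begins with UBE2, with USP and a digit, or with OTUD or OTUB. Of 108 such symbols, 4 pseudogenes, 8 antisense genes and UBE2T were left out, which left 95 of the 30051 genes with counts: 34 UBE2, 52 USP and 9 OTUD or OTUB genes. The rule reads symbols, not values, but was set with earlier results of these data known. A few of the 95 are not enzymes of this kind. USP6NL encodes a GTPase-activating protein, UBE2F-SCLY is a read-through gene, UBE2V1 and UBE2V2 encode E2 variants without the catalytic cysteine, and USP39 is a splicing factor that lacks the catalytic residues of its family.

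Ubiquitin is activated by an E1 enzyme, passed to the cysteine of an E2 conjugating enzyme (UBE2) and placed on a target protein with the help of an E3 ligase. The E2 often sets which kind of chain is built, and so whether the target goes to the proteasome, to a repair site or into a signalling complex. Ubiquitin-specific proteases (USP) and ovarian tumour domain proteases (OTU) are cysteine proteases that cut the chains off again. In cancer cells these enzymes act on cyclins, receptors, p53 with its ligase MDM2, and histones H2A and H2B.

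The tested cells received 50 nM panobinostat for 24 h (replicates 1, 2 and 4), and the cells they are set against received the solvent DMSO (replicates 1, 2 and 3). Both groups are the unmodified line, which came from a human triple-negative breast cancer of claudin-low type, so the data stand for 1 cell line, 1 dose and 1 time. Poly(A) RNA was sequenced, and per the design text each condition was repeated independently. In such bulk RNA, fewer cells expressing a gene and less RNA per cell cannot be told apart.

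Library totals were 5389638 to 15106148 counts in panobinostat and 6514568 to 11996519 in DMSO. The markers VIM and CD44 were high, at 2870 and 810 scaled counts (CPM, defined below) in panobinostat and 2567 and 761 CPM in DMSO, while CDH1, ESR1, PGR and CLDN3, 4 of 7 markers listed as low, stayed below 1 CPM in every library. The other 3 were above that, with EPCAM at 11.2 CPM in panobinostat and 18.5 CPM in DMSO (called lower), CLDN7 at 15.6 CPM in panobinostat and 15.5 CPM in DMSO, and CLDN4 at 4.05 CPM in panobinostat and 1.24 CPM in DMSO (called higher). SPARC, listed as a marker of the line, was low at 1.19 CPM in panobinostat and 1.41 CPM in DMSO. That list held 5 markers with VIM and CD44 among them, and the rest are not reported here. The markers given thus do not stand for the whole list. Of 5 leukocyte markers, 3 had a row and summed to 1.96 to 3.29 CPM in panobinostat and 0.427 to 0.678 CPM in DMSO, nearly all from CD14, with PTPRC at 0 in 5 of the 6 libraries. The 3 endothelial markers summed to 4.41 to 7.68 CPM in panobinostat and 6.83 to 8.30 CPM in DMSO. The 3 fibroblast markers summed to 55.4 to 90.5 CPM in panobinostat and 17.1 to 19.1 CPM in DMSO, carried by COL1A1. The part of these shifts in the results on the ubiquitin enzymes was not tested. On the first principal component of all tested genes (88.4% of the variance), panobinostat replicates 1, 2 and 4 lay at −59.3, −60.0 and −15.3 and the DMSO libraries at 44.3 to 45.5. Replicate 4 thus lay between the other panobinostat libraries and DMSO. The counts of calls over all tested enzyme genes, the family sums and some of the largest rises and falls are given with and without replicate 4.

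CPM are counts scaled to an effective library total of 1000000, and levels are mean ± SD with n = 3 per group unless a single library is named. Log2 fold changes are of panobinostat against DMSO and carry their SE, and calls need an adjusted p (Benjamini-Hochberg) under 0.05 in edgeR's quasi-likelihood test over all 13341 tested genes.

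The enzyme genes moved in both directions. Of the 84 tested, 24 rose, 28 fell and 32 were not called. This is 61.9% called, against 58.9% of all tested genes, of which 30.2% rose and 28.6% fell, so the share of changed enzymes was near that of the transcriptome. The 31 tested UBE2 genes held 10 rises, 12 falls and 9 without a call. Among the 46 USP genes, 12 rose, 15 fell and 19 were not called, and among the 7 OTUD and OTUB genes 2 rose, 1 fell and 4 were not called. No test was made between the families. The median log2 fold change was −0.06 over the 84 genes and 0.00 over all tested genes, and the median size of the change was 0.39 against 0.42.

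Of the 52 called genes, 29 (55.8%) changed by less than 1.5-fold, against 43.0% of all called genes, a difference that was not tested. At least 2-fold rises were found in 4 of the 84 (USP2, USP20, USP35 and UBE2H), where 10.9% of all tested genes rose that far, and at least 2-fold falls in 3 (USP13, USP1 and OTUD4), against 4.66% of all. The panobinostat and DMSO values did not overlap in 64 of the 84, against 69.0% of all tested genes, and in none of the 52 called genes did they overlap. Without panobinostat replicate 4, 67 of the 84 were called, against 74.9% of all tested genes. Of these 30 rose and 37 fell, against 37.7% and 37.2% of all, and all 52 calls were kept.

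**Figure D1:**
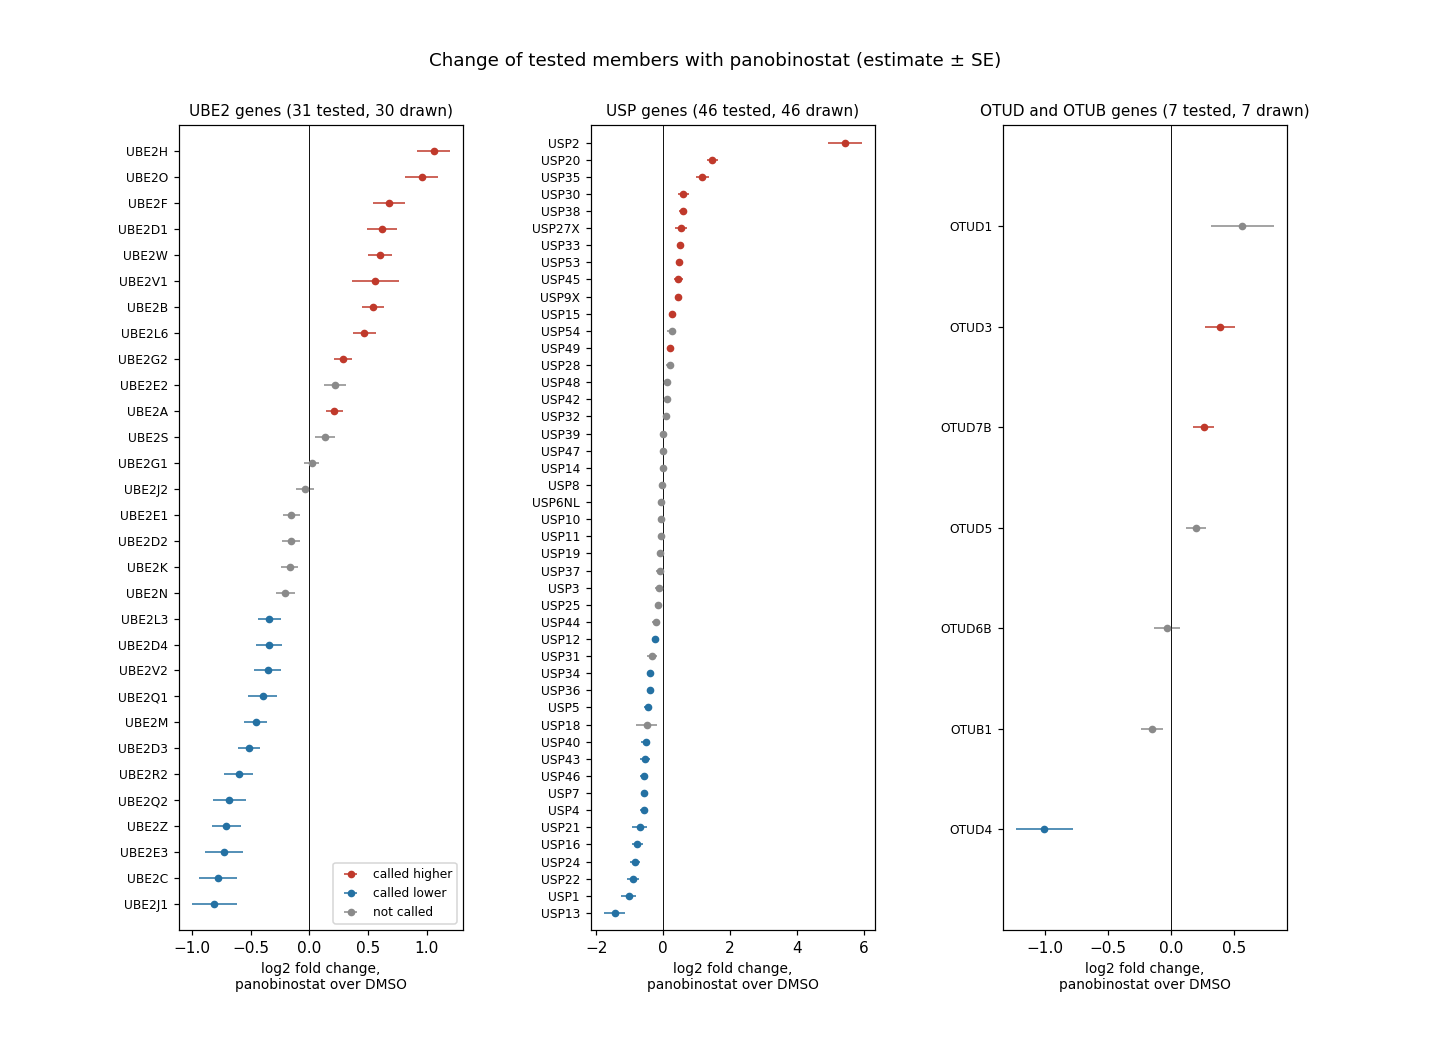
Log2 fold change (panobinostat over DMSO, estimate ± SE) of 83 of the 84 tested genes, in a panel each for UBE2, USP and OTUD or OTUB genes, with red for called higher, blue for called lower and grey for not called. The x axes differ between panels, and USP2 stands alone at 5.43.

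Summed over each family, the level was somewhat lower in panobinostat. The 34 UBE2 genes summed to 3294, 3447 and 3624 CPM in panobinostat replicates 1, 2 and 4, and to 3739, 3785 and 3720 CPM in DMSO replicates 1, 2 and 3. The 52 USP genes summed to 3314, 3273 and 3608 CPM in panobinostat and 3961, 3919 and 3919 CPM in DMSO. The 9 OTUD and OTUB genes summed to 389, 411 and 440 CPM in panobinostat and 483, 467 and 480 CPM in DMSO. In each family all panobinostat sums lay below all DMSO sums, and the difference of the means was −7.81% for UBE2, −13.6% for USP and −13.3% for OTUD and OTUB genes (−10.1%, −16.3% and −16.04% without panobinostat replicate 4). In each, panobinostat replicate 4 was the one nearest to DMSO. The sums weigh abundant genes most, and no test was made on them.

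USP2 encodes a deubiquitinase known to act on MDM2 and cyclin D1 and to follow the circadian clock. It had 224, 86 and 44 counts in panobinostat replicates 1, 2 and 4 and 4, 2 and 1 counts in DMSO replicates 1, 2 and 3, or 14.7, 15.8 and 6.62 CPM against 0.339, 0.285 and 0.155 CPM. The gene was close to silent in all DMSO libraries and present in all panobinostat libraries, with replicate 4 at less than the level of the others. The fitted log2 fold change was 5.43 ± 0.51. The gene passed the filter on low counts through the panobinostat libraries alone, so it had to differ, and its call among the 24 rises is no support. The summed counts were 354 in panobinostat and 7 in DMSO, a ratio of 46.8 per unit of depth with an exact 95% counting interval of 22.5 to 117, which covers counting error only. USP2 lies on chromosome 11 from 119355215 to 119381690 (GRCh38.p14) and is protein-coding, like every gene given with a position here.

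USP20 rose next most. Its product, VDU2, is a substrate of the von Hippel-Lindau ligase and recycles beta-adrenergic receptors together with its paralogue USP33. USP20 (chromosome 9, 129835458 to 129881828) had 98.5, 95.6 and 66.4 CPM in panobinostat replicates 1, 2 and 4, and 33.1, 31.6 and 29.01 CPM in DMSO replicates 1, 2 and 3. Every panobinostat library held at least 2 times the highest DMSO value, and the log2 fold change was 1.47 ± 0.15 (adjusted p = 0.000687). USP33 also rose, to 118 ± 7.15 CPM in panobinostat against 82.8 ± 5.94 CPM in DMSO (0.51 ± 0.08, adjusted p = 0.00225).

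USP35, a deubiquitinase known as an antagonist of mitophagy, had 28.9, 27.4 and 18.4 CPM in panobinostat and 9.75, 12.7 and 11.5 CPM in DMSO (1.16 ± 0.20, adjusted p = 0.00266). The gene lies on chromosome 11 from 78188919 to 78237219. USP30, which is anchored in the outer mitochondrial membrane and opposes Parkin, had 27.3, 27.0 and 19.0 CPM in panobinostat and 15.6, 17.2 and 15.8 CPM in DMSO (0.60 ± 0.16, adjusted p = 0.0120). Both groups were apart for both genes, although replicate 4 of USP30 came within a few CPM of DMSO. USP30 lost its call without panobinostat replicate 1 or DMSO replicate 1 (adjusted p of up to 0.0559 over all its alternatives).

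Among the conjugating enzymes, UBE2H and UBE2O rose most. UBE2H is the E2 of the CTLH (GID) ligase complex and is known for its part in red cell maturation. It had 170, 174 and 119 CPM in panobinostat replicates 1, 2 and 4 and 70.9, 74.6 and 77.1 CPM in DMSO replicates 1, 2 and 3 (log2 fold change 1.06 ± 0.14, adjusted p = 0.00119, and 1.21 without panobinostat replicate 4). UBE2O is a large enzyme that joins E2 and E3 activity and clears unassembled proteins, also in reticulocytes. It had 163, 172 and 117 CPM in panobinostat and 78.5, 73.9 and 81.3 CPM in DMSO (0.95 ± 0.14, adjusted p = 0.00155, and 1.09 without panobinostat replicate 4). In both, the lowest panobinostat library was well above the highest DMSO library. UBE2H lies on chromosome 7 from 129830732 to 129952960 and UBE2O on chromosome 17 from 76389456 to 76453152.

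The remaining genes of the 12 largest rises lay between 0.54 and 0.68 on the log2 scale, close to 1.5-fold. They were UBE2F, an E2 for NEDD8 (0.68 ± 0.14), UBE2D1 (0.62 ± 0.12), UBE2W, which marks the amino terminus of its targets (0.60 ± 0.10), USP38 (0.59 ± 0.11), UBE2V1 (0.56 ± 0.20) and UBE2B (0.54 ± 0.09). UBE2W stood at 34.7 ± 2.87 CPM in panobinostat and 22.8 ± 1.20 CPM in DMSO, and USP38 at 91.6 ± 10.5 CPM in panobinostat and 60.9 ± 5.03 CPM in DMSO. UBE2F and UBE2V1 share 16.2% and 42.9% of their exon length (GENCODE 29) with read-through genes on the same strand, so their counts are uncertain, and UBE2V1 was low at 5.30 ± 0.727 CPM in panobinostat and 3.62 ± 0.512 CPM in DMSO. UBE2V1 lost its call without any single library other than panobinostat replicate 4, with no filter and with the DESeq2 Wald test (adjusted p = 0.0106 to 0.189 over its alternatives).

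**Figure D2:**
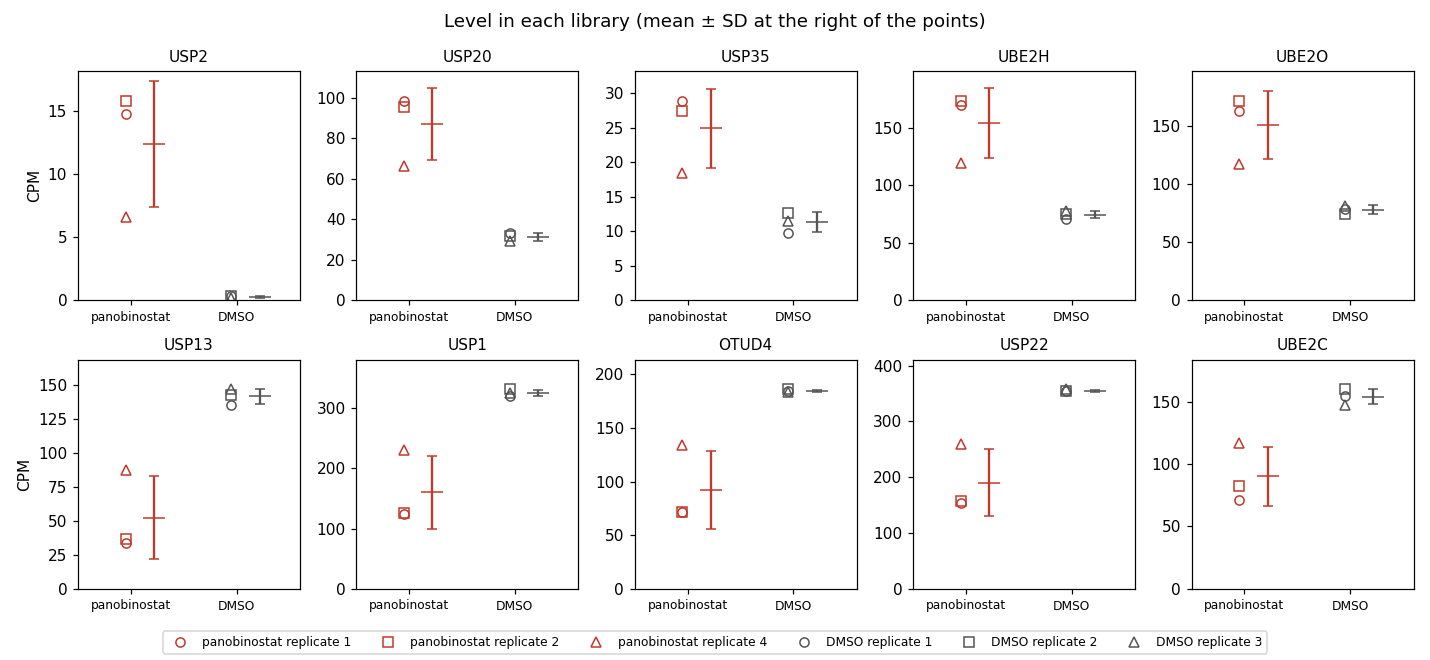
CPM in each library for the 5 largest rises (top row) and 5 of the largest falls (bottom row), panobinostat in red at the left and DMSO in grey at the right of each panel, with the mean ± SD beside the points and every y axis from 0. In each panel the groups are apart, and panobinostat replicate 4 (red triangle) is the panobinostat library nearest to DMSO.

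USP13 fell most. Its product is a paralogue of USP5, is known to stabilise Beclin-1, and acts in degradation at the endoplasmic reticulum. USP13 (chromosome 3, 179653040 to 179789401) had 33.5, 36.4 and 87.3 CPM in panobinostat replicates 1, 2 and 4 and 136, 142 and 147 CPM in DMSO replicates 1, 2 and 3. All panobinostat values were below all DMSO values, but replicate 4 held more than 2 times the level of the other panobinostat libraries. The log2 fold change was −1.45 ± 0.33 (adjusted p = 0.00678), and −2.04 without panobinostat replicate 4.

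USP1 removes ubiquitin from FANCD2 and PCNA in DNA repair. The gene (chromosome 1, 62436395 to 62451804) had 124, 126 and 231 CPM in panobinostat and 320, 331 and 325 CPM in DMSO (−1.02 ± 0.22, adjusted p = 0.00576, and −1.38 without panobinostat replicate 4). OTUD4, an OTU protease tied to alkylation repair (chromosome 4, 145133650 to 145180589), had 71.3, 71.5 and 134 CPM in panobinostat and 184, 186 and 184 CPM in DMSO (−1.004 ± 0.23, adjusted p = 0.00692, and −1.37 without panobinostat replicate 4). For both, replicates 1 and 2 of panobinostat agreed closely and replicate 4 lay roughly midway to DMSO. With no filter on low counts, USP13, USP1 and OTUD4 were not called (adjusted p up to 0.0972, 0.0810 and 0.0826 over their alternatives).

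USP22 is the deubiquitinase of the SAGA coactivator complex and takes ubiquitin off histone H2B. USP22 (chromosome 17, 20999596 to 21043419) had 154, 157 and 259 CPM in panobinostat and 353, 354 and 357 CPM in DMSO (−0.90 ± 0.18, adjusted p = 0.00491, and −1.19 without panobinostat replicate 4). USP24, a large relative of USP9X, had 101, 96.9 and 148 CPM in panobinostat and 211, 203 and 209 CPM in DMSO (−0.85 ± 0.15, adjusted p = 0.00302, and −1.06 without it). The DMSO libraries were within a few percent of each other for both genes, and no panobinostat library reached them.

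The other large falls included 5 conjugating enzymes and 2 deubiquitinases. UBE2J1, a membrane-anchored E2 of the endoplasmic reticulum, had 48.0, 46.3 and 79.9 CPM in panobinostat and 107, 96.6 and 101 CPM in DMSO (−0.81 ± 0.19, adjusted p = 0.00846, and −1.10 without panobinostat replicate 4). UBE2E3 (−0.73 ± 0.16), UBE2Z, which works with the E1 UBA6 (−0.71 ± 0.12), and UBE2Q2 (−0.68 ± 0.14) fell, as did UBE2C, described with its partner below. The histone H2A deubiquitinases USP16 (−0.77 ± 0.16) and USP21 (−0.70 ± 0.22) fell too. USP21 lost its call without any single library other than panobinostat replicate 4 (adjusted p up to 0.0968 over its alternatives).

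The start regions of the 2 largest rises and the 2 largest falls among USP genes are shown to set the changes beside their promoters. Each is a RefSeq window of 300 bases on GRCh38.p14, from 250 bases before to 50 after the annotated start, 5′ to 3′ on the gene's strand. The USP2 window is built on a start 17482 bases inside the gene's outer end, while the others begin at the outer end. Capitals mark matches, on either strand, to a GC box (GGGCGG) or a CCAAT box (CCAAT).
USP2 (chr11:119364159-119364458, minus strand): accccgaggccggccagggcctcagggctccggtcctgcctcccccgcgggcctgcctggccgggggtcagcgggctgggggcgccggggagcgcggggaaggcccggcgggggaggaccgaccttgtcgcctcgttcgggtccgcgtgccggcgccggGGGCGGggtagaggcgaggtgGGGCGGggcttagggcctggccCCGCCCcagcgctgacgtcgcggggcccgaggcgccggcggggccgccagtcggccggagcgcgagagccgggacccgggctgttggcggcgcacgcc
USP20 (chr9:129835208-129835507, plus strand): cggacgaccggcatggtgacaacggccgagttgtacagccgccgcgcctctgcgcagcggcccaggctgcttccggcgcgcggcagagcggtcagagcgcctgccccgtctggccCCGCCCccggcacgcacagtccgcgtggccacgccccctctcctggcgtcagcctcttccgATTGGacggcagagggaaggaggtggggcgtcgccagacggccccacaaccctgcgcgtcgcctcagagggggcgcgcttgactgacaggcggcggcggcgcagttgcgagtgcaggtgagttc
USP13 (chr3:179652790-179653089, plus strand): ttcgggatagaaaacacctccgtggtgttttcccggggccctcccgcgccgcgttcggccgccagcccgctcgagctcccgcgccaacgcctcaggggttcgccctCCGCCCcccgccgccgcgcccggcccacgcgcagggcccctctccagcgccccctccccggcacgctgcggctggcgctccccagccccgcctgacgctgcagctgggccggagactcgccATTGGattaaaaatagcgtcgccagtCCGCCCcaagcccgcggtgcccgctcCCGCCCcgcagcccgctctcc
USP1 (chr1:62436145-62436444, plus strand): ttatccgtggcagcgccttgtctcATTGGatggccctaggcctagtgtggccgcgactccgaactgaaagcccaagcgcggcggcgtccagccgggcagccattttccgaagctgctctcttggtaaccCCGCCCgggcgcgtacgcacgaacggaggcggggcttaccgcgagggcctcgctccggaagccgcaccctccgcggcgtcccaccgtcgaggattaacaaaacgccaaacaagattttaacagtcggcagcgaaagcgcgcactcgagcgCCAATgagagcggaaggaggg

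All 4 windows were rich in CpG, with 44 CpG dinucleotides in USP2, 39 in USP20, 41 in USP13 and 37 in USP1, against a median of 14 over the 27305 promoters of the table. A window was found for 70 of the 95 genes. The median window held 30 CpG over 20 genes that rose, 36 over 23 that fell and 35.5 over 24 that were not called. Its GC content was 68.8%, 74.3% and 72.3%, against 58.3% over all promoters, so these windows were GC-rich against that background with or without a call. That background also holds promoters of genes not tested here, and no share over the tested genes alone was taken. A GC box was found in 18 of the 20 that rose (90%), 20 of the 23 that fell (87.0%), 20 of the 24 not called (83.3%) and 44.6% of all promoters. A CCAAT box was found in 5 (25%), 6 (26.1%) and 8 (33.3%) of them and in 35.7% of all promoters. In the same order, the E-box CACGTG was in 0, 1 and 4 of them and in 7.43% of all, TATAAA in 0, 2 and 1 and in 11.95%, TGACGTCA in 0, 0 and 1 and in 1.98%, and TTTGAA in 3, 0 and 1 and in 15.4%. These are letter matches, without evidence of binding, and the windows cover 1 annotated start per gene.

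Seen by role, of both E2s of the anaphase-promoting complex UBE2C fell and UBE2S was not called. UBE2C starts the chains that this ligase puts on mitotic cyclins and UBE2S extends them. UBE2C (chromosome 20, 45812644 to 45816952) had 71.3, 82.5 and 117 CPM in panobinostat and 154, 160 and 148 CPM in DMSO (−0.78 ± 0.16, adjusted p = 0.00532, and −1.04 without panobinostat replicate 4). UBE2S had 334, 386 and 351 CPM in panobinostat and 296, 356 and 325 CPM in DMSO (0.13 ± 0.09, adjusted p = 0.217), and its groups overlapped. The ratio of UBE2C to UBE2S CPM within a library was 0.214, 0.214 and 0.333 in panobinostat and 0.521, 0.448 and 0.454 in DMSO, with no overlap.

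The UBE2D and UBE2E enzymes serve many E3 ligases. Of the 7, UBE2D1 rose, UBE2D3, UBE2D4 and UBE2E3 fell, and UBE2D2, UBE2E1 and UBE2E2 were not called. Over all tested genes, 30.2% were higher and 28.6% lower. UBE2D3 had 292, 290 and 365 CPM in panobinostat and 451, 450 and 451 CPM in DMSO (−0.52 ± 0.09, adjusted p = 0.00327), whereas UBE2D1 had 72.0, 84.7 and 59.6 CPM in panobinostat and 47.1, 46.8 and 46.7 CPM in DMSO (adjusted p = 0.00458). UBE2D2 was at −0.16 ± 0.07 (adjusted p = 0.101), UBE2E1 at −0.15 ± 0.07 (0.0955) and UBE2E2 at 0.22 ± 0.10 (0.0841). These genes are close relatives with processed copies in the genome, so reads shared between copies could blur their values. UBE2D4 (−0.35 ± 0.11) lost its call without any single library other than panobinostat replicate 4.

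Both RAD6 homologues, which ubiquitinate histone H2B and PCNA, rose. UBE2B was at 107 ± 11.9 CPM in panobinostat and 73.7 ± 2.504 CPM in DMSO (adjusted p = 0.00280). UBE2A was at 178 ± 9.73 CPM in panobinostat and 153 ± 5.90 CPM in DMSO (0.21 ± 0.07, adjusted p = 0.0269), a smaller change that lost its call without any single library other than panobinostat replicate 4, with no filter and with the DESeq2 Wald test. Of the makers of lysine-63 chains, the catalytic UBE2N was not called, at 203 ± 18.8 CPM in panobinostat and 234 ± 8.52 CPM in DMSO (−0.20 ± 0.08, adjusted p = 0.0527), and it was called lower without panobinostat replicate 4 (−0.29). Its partner UBE2V2 fell (−0.36 ± 0.11, adjusted p = 0.0242, lost without any single library other than panobinostat replicate 4), while the partner UBE2V1, given above, rose. UBE2N shares 39.5% of its exon length with a gene on the other strand, and whether reads were counted by strand is not stated in the labels or files used.

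Of the 5 E2s of degradation at the endoplasmic reticulum, UBE2J1 fell, UBE2G2 rose and UBE2G1, UBE2J2 and UBE2K were not called. This is set against 30.2% higher and 28.6% lower over all tested genes. UBE2G2, the partner of the ligase gp78, was at 192 ± 11.9 CPM in panobinostat and 157 ± 8.45 CPM in DMSO (0.29 ± 0.07, adjusted p = 0.0113, and not called without DMSO replicate 3 at 0.0554). UBE2K, which builds lysine-48 chains, was at 209 ± 18.7 CPM in panobinostat and 235 ± 5.28 CPM in DMSO (−0.17 ± 0.08, adjusted p = 0.0863). UBE2G1 (0.02 ± 0.06) and UBE2J2 (−0.04 ± 0.08) had overlapping groups.

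Among the E2s of ubiquitin-like proteins, changes went both ways. For NEDD8, which activates cullin ligases, UBE2M fell to 98.0 ± 12.9 CPM in panobinostat, against 134 ± 5.96 CPM in DMSO (−0.46 ± 0.10, adjusted p = 0.00593), and UBE2F rose to 13.9 ± 1.61 CPM in panobinostat, against 8.83 ± 0.284 CPM in DMSO (adjusted p = 0.00490). UBE2L6, the E2 of the interferon-induced modifier ISG15, rose to 58.2 ± 5.28 CPM in panobinostat, against 42.1 ± 3.25 CPM in DMSO (0.47 ± 0.10, adjusted p = 0.00575).

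Of the other E2s, UBE2L3, the E2 of Parkin and of the linear chain complex, fell (−0.34 ± 0.10, adjusted p = 0.0187), as did UBE2R2, a cullin partner (−0.60 ± 0.13, adjusted p = 0.00518), and UBE2Q1 (−0.40 ± 0.12, adjusted p = 0.0218). UBE2Q1 lost its call without any single library other than panobinostat replicate 4. UBE2L3 lost its call likewise, except that it kept it without DMSO replicate 2.

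Of the deubiquitinases that act on histones H2A or H2B, 10 of 11 listed were tested. Among these, 2 rose, 5 fell and 3 were not called, against 30.2% higher and 28.6% lower over all tested genes. Their median log2 fold change was −0.30, against 0.00 over all genes. USP22, USP16, USP21, USP7 and USP36 fell, USP27X and USP49 rose, and USP3, USP11 and USP44 were not called. USP7, which also stabilises MDM2 and p53, was at 116, 111 and 145 CPM in panobinostat and 185, 183 and 183 CPM in DMSO (−0.56 ± 0.10, adjusted p = 0.00325). USP36, a nucleolar enzyme, was at 58.1 ± 5.62 CPM in panobinostat and 76.2 ± 4.48 CPM in DMSO (−0.39 ± 0.09, adjusted p = 0.00862). USP27X, which can replace USP22 in its module, had 10.3, 10.3 and 9.33 CPM in panobinostat and 6.27, 5.98 and 8.69 CPM in DMSO (0.53 ± 0.18, adjusted p = 0.0318). USP51, the other such homologue, had too few counts to be tested.

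USP27X and USP49 (0.22 ± 0.08, adjusted p = 0.0391) rest on small margins. USP49 lost its call without any single library other than panobinostat replicate 4 and USP27X without any but panobinostat replicate 4 or DMSO replicate 3, and both lost it with no filter and with the DESeq2 Wald test (adjusted p up to 0.325 and 0.127 over their alternatives). USP44, which acts on the spindle checkpoint and H2B, was at 13.7 ± 1.43 CPM in panobinostat and 15.8 ± 0.329 CPM in DMSO (−0.21 ± 0.12, adjusted p = 0.180).

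Of 10 tested genes of the DNA damage response, 0 rose, 3 fell and 7 were not called. Over all tested genes, 30.2% were higher and 28.6% lower. Without panobinostat replicate 4, 3 rose, 4 fell and 3 were not called, against 37.7% higher and 37.2% lower over all. With all libraries, USP1, OTUD4 and USP7 were the 3 that fell. Not called were USP3, USP11, USP47, USP48, USP28 (0.19 ± 0.11, adjusted p = 0.163), OTUB1, a blocker of UBE2N (57.8 ± 5.61 CPM in panobinostat and 63.8 ± 0.443 CPM in DMSO, adjusted p = 0.187), and OTUD5 (0.20 ± 0.08, adjusted p = 0.0586). Of the 8 genes of the p53 and MDM2 axis, USP2 rose and USP4, USP7 and USP24 fell. USP10, USP42, OTUB1 and OTUD5 were not called. Over all tested genes, 30.2% were higher and 28.6% lower, and the call of USP2 is no support, as given above. USP10, which deubiquitinates p53 in the cytoplasm, had 184, 179 and 180 CPM in panobinostat and 195, 176 and 193 CPM in DMSO (−0.05 ± 0.06), with overlapping groups.

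Of 5 tested genes that act on receptor trafficking, 4 rose and 0 fell, against 30.2% and 28.6% of all genes. USP2, USP20 and USP33 are given above. USP2 is among the 4 that rose, but the filter fixed its call, which is no support. USP9X, an X-linked enzyme known to stabilise MCL1, had 233, 213 and 190 CPM in panobinostat and 160, 156 and 156 CPM in DMSO (0.43 ± 0.08, adjusted p = 0.00401). USP8 deubiquitinates EGFR on endosomes and stabilises Nrdp1, the RNF41 ligase that controls HER3, the receptor named in the title of the series. USP8 was not called, with 54.8, 55.7 and 57.5 CPM in panobinostat and 54.7, 62.1 and 54.0 CPM in DMSO (−0.02 ± 0.08, adjusted p = 0.824). RNF41 itself rose to 61.2 ± 11.1 CPM in panobinostat, against 38.6 ± 1.34 CPM in DMSO (0.68 ± 0.13, adjusted p = 0.00438).

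The 3 enzymes that work with the cofactor WDR48 fell, where 28.6% of all tested genes did. They are USP1, USP46 (−0.56 ± 0.12, adjusted p = 0.00566) and USP12 (−0.25 ± 0.08, adjusted p = 0.0299). USP12 lost its call without any single library other than panobinostat replicate 4. WDR48 fell as well, at 60.1 ± 6.37 CPM in panobinostat and 75.9 ± 3.34 CPM in DMSO (−0.34 ± 0.09, adjusted p = 0.0148, up to 0.0633 over its alternatives, of which 4 ended its call). USP5, which clears free chains, fell to 99.0 ± 15.98 CPM in panobinostat, against 136 ± 1.09 CPM in DMSO (−0.46 ± 0.11, adjusted p = 0.00859). Its paralogue USP13, given above, fell too. USP14, which trims chains on the proteasome, had 210, 206 and 217 CPM in panobinostat and 220, 210 and 209 CPM in DMSO (−0.02 ± 0.06, adjusted p = 0.831), with overlapping groups.

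Of 9 tested genes of interferon and NF-κB signalling, 3 rose, 1 fell and 5 were not called, against 30.2% higher and 28.6% lower over all. OTUD7B (0.26 ± 0.08, adjusted p = 0.0237), OTUD3 (0.39 ± 0.12, adjusted p = 0.0220) and USP15 (0.26 ± 0.09, adjusted p = 0.0424) rose, and USP4 fell (−0.57 ± 0.11, adjusted p = 0.00378). The 3 rises were lost with no filter and without any single library other than panobinostat replicate 4. USP18, which takes ISG15 off proteins, was barely expressed, with 1.05, 0.919 and 1.505 CPM in panobinostat and 1.69, 1.85 and 1.24 CPM in DMSO (adjusted p = 0.195). OTUD1 was at 9.07 ± 0.285 CPM in panobinostat and 6.09 ± 2.27 CPM in DMSO (0.57 ± 0.25, adjusted p = 0.0816), with DMSO libraries at 6.36, 3.70 and 8.22 CPM. Of 7 genes of mitochondria and the endoplasmic reticulum, USP20, USP30, USP33 and USP35 rose, USP13 fell, and USP19 and USP25 were not called. This is set against 30.2% higher and 28.6% lower over all tested genes.

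The USP genes outside these lists also went both ways. USP53 (0.46 ± 0.09, adjusted p = 0.00383) and USP45 (0.46 ± 0.13, adjusted p = 0.0170) rose, and USP40 (−0.53 ± 0.12, adjusted p = 0.00712), USP43 (−0.54 ± 0.16, adjusted p = 0.0179) and USP34, an enzyme of Wnt signalling (−0.38 ± 0.11, adjusted p = 0.0172), fell. USP43 lost its call in 4 alternatives, USP34 in 5 and USP45 in 5, all but 1 of them leaving out a single library. USP31 (−0.34 ± 0.14, adjusted p = 0.0696), USP32, USP37, USP39, USP54 and USP6NL were not called.

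Of 20 related pairs, 6 had members called in opposite directions. They were USP2 with USP21, USP16 with USP45, USP22 with USP27X, UBE2D1 with UBE2D3, UBE2F with UBE2M and USP4 with USP15. The filter fixed the call of USP2, so its pair is no support. The pairs were chosen after the values were seen. Over all tested genes, 30.2% were higher and 28.6% lower, and no share over other pairs was taken. The ratio of the CPM of a pair within each library does not depend on scaling between libraries. It is given for some of these pairs and for some others. USP13 over USP5, both called lower, was 0.384, 0.394 and 0.744 in panobinostat and 1.00, 1.04 and 1.08 in DMSO. USP22 over USP27X was 15.03, 15.29 and 27.8 in panobinostat and 56.4, 59.2 and 41.1 in DMSO. UBE2D1 over UBE2D3 was 0.247, 0.293 and 0.163 in panobinostat and 0.104, 0.104 and 0.104 in DMSO. In each of these ratios the groups were apart, with panobinostat replicate 4 nearest to DMSO.

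UBE2F over UBE2M was 0.176, 0.145 and 0.113 in panobinostat and 0.0661, 0.0614 and 0.0697 in DMSO. UBE2J1 over UBE2J2, of which only UBE2J1 was called, was 0.808, 0.761 and 1.22 in panobinostat and 1.75, 1.49 and 1.54 in DMSO. USP4 over USP15 was 0.494, 0.464 and 0.712 in panobinostat and 0.890, 1.05 and 1.00 in DMSO. USP25 over USP28, by contrast, overlapped, at 1.28, 1.22 and 1.78 in panobinostat and 1.70, 1.87 and 1.76 in DMSO. With 3 libraries against 3, a two-sided exact permutation test of such a ratio cannot go below 0.1, and none was run.

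**Figure D3:**
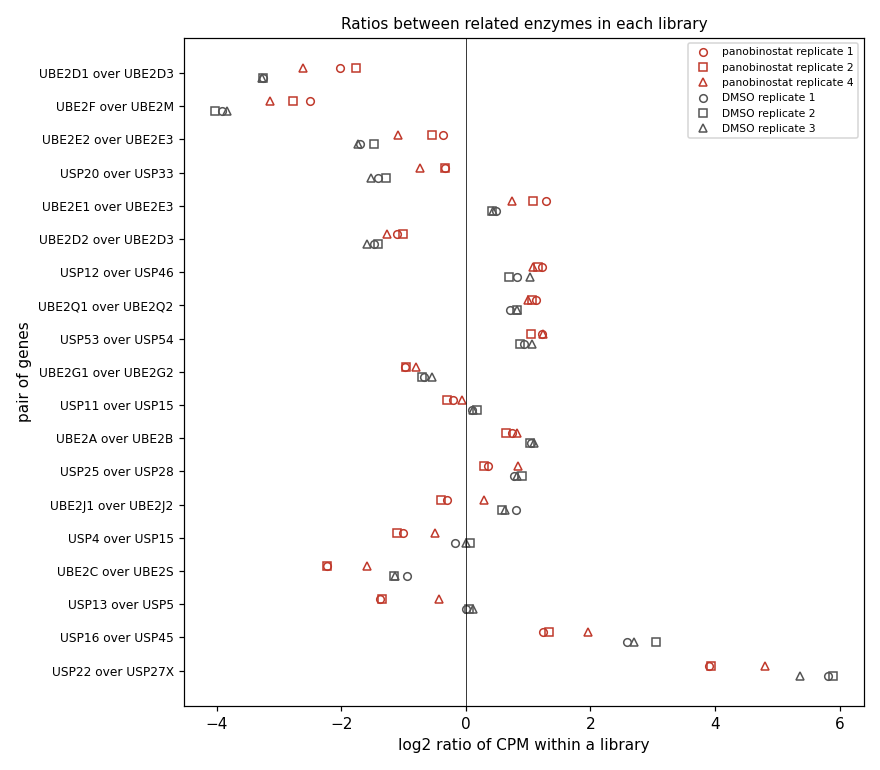
Log2 ratio of the CPM of related genes within each library, 1 pair per row, with panobinostat in red above DMSO in grey and a symbol for each replicate. The pairs at the top shifted to the right in panobinostat and those at the bottom to the left, and USP25 over USP28 and USP53 over USP54 are the rows in which the groups overlap.

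Levels can be compared between genes only per length, here as mean CPM per kilobase of merged exons (GENCODE 29). The highest was UBE2S in panobinostat, at 128 CPM per kb in panobinostat and 117 CPM per kb in DMSO, and UBE2C in DMSO, at 70.2 CPM per kb in panobinostat and 120 CPM per kb in DMSO. USP1 followed in DMSO, at 37.6 CPM per kb in panobinostat and 76.3 CPM per kb in DMSO, then UBE2M, at 53.5 CPM per kb in panobinostat and 73.4 CPM per kb in DMSO, and USP22, at 27.9 CPM per kb in panobinostat and 52.1 CPM per kb in DMSO. USP2, at 2.73 CPM per kb in panobinostat and 0.0572 CPM per kb in DMSO, was far below these in both groups. The annotation the authors counted on is not stated in the labels or files used, and merged exons overstate the length of genes with many alternative ends.

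Panobinostat replicate 4 responded less in nearly all called genes. Over the 24 that rose, replicates 1, 2 and 4 stood at a median of 0.56, 0.57 and 0.40 above the mean DMSO level on the log2 scale, and replicate 4 was the smallest in 23 of 24. Over the 28 that fell it was −0.70, −0.72 and −0.32, and replicate 4 was the smallest in size in 28 of 28. The calls were made on these same libraries, so these medians describe them and test nothing. Among the 32 genes not called, 15 were called when replicate 4 was left out, among them UBE2N, UBE2K, UBE2D2, UBE2E1 and OTUB1 lower and OTUD5, OTUD1, USP28 and USP54 higher. Leaving it out took the called share from 61.9% to 79.8% of the tested enzyme genes. Over all tested genes the share went from 58.9% to 74.9%, so such a gain was not particular to these enzymes.

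**Figure D4:**
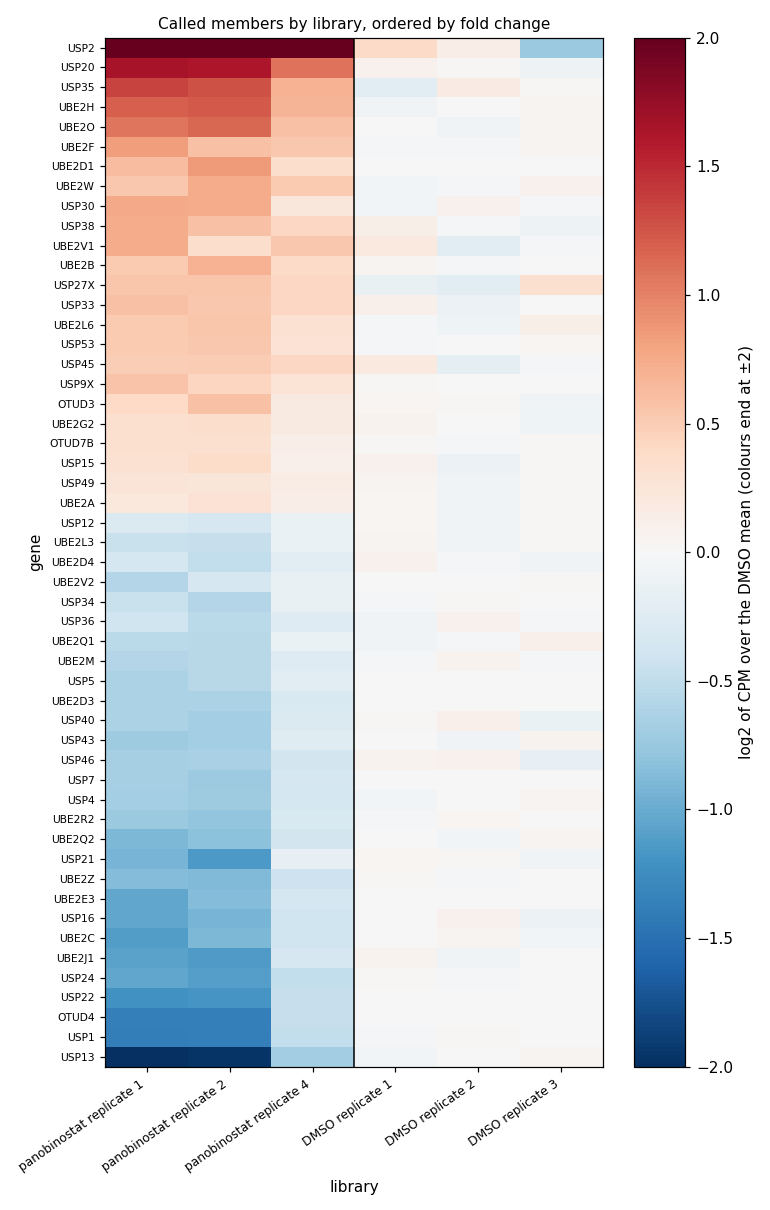
Log2 of the CPM over the DMSO mean for the 52 called genes (rows, by fold change) in each library (columns, panobinostat left of DMSO), with red for higher, blue for lower and colours ending at ±2. The panobinostat replicate 4 column is paler than those of replicates 1 and 2 for nearly all genes of both directions.

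The other parts of the pathway were read from lists of their genes. The counts of these lists are read against the 30.2% higher and 28.6% lower of all tested genes. Of the 9 E1 genes, 0 rose and 4 fell. The SUMO E1 subunits UBA2 (−0.61 ± 0.11) and SAE1 (−0.23 ± 0.06), the NEDD8 E1 subunit NAE1 (−0.52 ± 0.12) and ATG7 of autophagy (−0.30 ± 0.10) fell, while the main ubiquitin E1 genes UBA1 (0.03 ± 0.05) and UBA6 (0.01 ± 0.06) were not called. SAE1 lost its call in 2 alternatives and ATG7 in 5. A list of 8 genes with other names held E2 enzymes and E2 variants. Of these, CDC34, the E2 of SCF ligases (0.39 ± 0.07), and the variants AKTIP (0.65 ± 0.14) and UEVLD (0.42 ± 0.09) rose. UFC1 (−0.64 ± 0.15) and ATG10 (−0.70 ± 0.22) fell, ATG10 with a call lost in 4 alternatives.

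Of 24 tested deubiquitinases of other families, 5 rose, 4 fell and 15 were not called, which is 37.5% called against 58.9% of all tested genes. MPND (1.02 ± 0.25), TNFAIP3, the NF-κB inhibitor A20 (0.95 ± 0.16), CYLD, a tumour suppressor that cuts lysine-63 and linear chains (0.61 ± 0.09), and MINDY3 (0.58 ± 0.11) rose, as did the histone H2A enzyme MYSM1 (0.57 ± 0.13, adjusted p = 0.00738). BAP1, which also acts on H2A and was, like MYSM1, named after its value was seen, was not called, at 177 CPM in both groups. STAMBPL1, a metalloprotease for lysine-63 chains, fell to 19.2 ± 14.6 CPM in panobinostat, against 53.8 ± 2.09 CPM in DMSO (−1.52 ± 0.41, adjusted p = 0.0144). It was at −2.32 without panobinostat replicate 4 and was not called with no filter. YOD1 (−0.50 ± 0.08), ATXN3 (−0.49 ± 0.12) and PSMD14 of the proteasome (−0.26 ± 0.06) also fell. Of 9 partners of USP enzymes, 2 rose and 4 fell, and among these ATXN7 (−0.63 ± 0.16) and ATXN7L3 (−0.41 ± 0.07), which belong to the USP22 module of SAGA, fell. ENY2 of the same module was not called (−0.10 ± 0.06, adjusted p = 0.219), and its groups overlapped.

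Of 9 ubiquitin-like modifiers tested, ISG15 rose (1.75 ± 0.18, adjusted p = 0.000655) and SUMO3 (−0.78 ± 0.14), URM1 (−0.49 ± 0.16) and SUMO2 (−0.33 ± 0.10) fell, with the calls of URM1 lost in 5 alternatives and of SUMO2 in 4. Of 9 proteases for SUMO and NEDD8, 2 rose and 5 fell, against 30.2% and 28.6% of all. SENP2 (0.51 ± 0.08) and SENP5 (0.40 ± 0.08) rose, and SENP6, which trims SUMO chains, fell to 35.9 ± 18.1 CPM in panobinostat, against 102 ± 1.78 CPM in DMSO (−1.53 ± 0.28, adjusted p = 0.00353, and −2.01 without panobinostat replicate 4), although not with no filter. SENP1 (−0.94 ± 0.15), SENP7 (−0.70 ± 0.19) and SENP3 (−0.33 ± 0.10) fell too, the last 2 with calls lost in 3 alternatives each, as did DESI2 (−0.26 ± 0.08), whose call was lost in 4.

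Of the 95 genes, 11 did not pass the filter on low counts. They were OTUB2, OTUD7A, UBE2F-SCLY, UBE2L5, UBE2Q2L, USP6, USP17L2, USP17L7, USP26, USP41 and USP51. USP26 had 0 counts in all libraries, and 10 of the 11 were below 0.5 CPM on average, so a change in them was not detectable at this depth.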

How the data were processed

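RNA of 6 libraries of MDA-MB-231 cells was analysed, 3 after 50 nM panobinostat and 3 after DMSO. The authors deposited raw counts per gene in 1 table, whose name points to featureCounts. GRCh38.p14 and FastQC are listed in the submitters' processing notes, and per the labels' protocols the libraries came from a stranded mRNA kit. The aligner, the annotation and the strand setting are not stated in the labels or files used. The count columns and the symbol column follow different gene identifier columns that part at line 62, so both were matched by identifier.

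Counts were tested with edgeR 4.0.16 in R 4.3.3 (quasi-likelihood, robust, TMM factors, filterByExpr, treatment as the only term). Alternatives were DESeq2 1.42.0, limma 3.58.1 voom with and without library quality weights, other scaling, no filter, a replicate block and leaving out each library. SEs were derived from each estimate with its F value. The method was tested on simulated data. The members and lists were chosen with earlier results of these data known. Named in detail are the 12 largest called rises and falls at 1 CPM or more, the most abundant members and a fixed set. A few individual genes are not reported here. The pairs and the promoters shown were chosen after the values were seen. Positions and promoters are from RefSeq (GRCh38.p14), lengths from GENCODE 29.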

Additional observations from a re-analysis of the deposited data

How the results depend on the processing

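Of the 52 calls among the ubiquitin enzymes, 31 were kept in all 14 alternatives, and no direction reversed. With DESeq2 size factors, upper-quartile factors, library size only, limma-voom, library quality weights, the replicate block or without panobinostat replicate 4, all 52 were kept. The DESeq2 Wald test kept 47 and no filter 41, and leaving out any other single library kept 35 to 38. Kept calls were not counted over all genes. Leaving out 1 library gave 15 to 30 enzyme genes higher (24 with all) and 7 to 15 USP genes higher (12), with 15 and 7 found without panobinostat replicate 1. It gave 20 to 37 enzyme genes lower (28) and 8 to 17 UBE2 genes lower (12). It gave 0 to 4 OTUD and OTUB genes higher (2) and 1 to 2 lower (1). Over all tested genes, leaving out 1 library gave 3105 to 5024 higher (4032) and 2660 to 4969 lower (3821). With no filter, 0 OTUD and OTUB genes were higher and 0 lower. Library quality weights gave 4 and 2, and so did the replicate block. The cause of these shifts was not tested. Replicate numbers 1 and 2 occur in both groups, but the labels tie them to no shared batch. The deviations of same-numbered libraries correlated at 0.05 and 0.01, and those of differently numbered libraries at −0.06 to 0.03. With few libraries and panobinostat replicate 4 lying apart, this check cannot exclude a shared batch. edgeR estimated a biological coefficient of variation of 0.112 with all libraries and 0.028 with panobinostat replicate 4 left out.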

Other observations

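OTUB2, an OTU enzyme that was not tested, had 38, 3 and 5 counts in panobinostat replicates 1, 2 and 4 and 46, 3 and 6 counts in DMSO replicates 1, 2 and 3. Replicate 1 of both groups was thus the high library, at 2.498 CPM in panobinostat and 3.90 CPM in DMSO, against 0.551 and 0.753 CPM in the other panobinostat libraries and 0.427 and 0.931 CPM in the other DMSO libraries. The cause was not tested.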
